A study of Homo sapiens and Mus musculus with 8 samples.

Results

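The vehicle-treated libraries of 2 small cell lung cancer (SCLC) lines, 4 of the 8 libraries of the series, were described before any drug effect. They were chosen by their labels as all vehicle libraries: 2 from H146 (NCI-H146), a human SCLC line, and 2 from F1339, a mouse SCLC line. Both lines were grown in RPMI medium with 10% fetal bovine serum, and the treated arms, which received 0.5 µM decitabine for 96 h in H146 and 72 h in F1339, enter nothing below. Line, species, annotation and time in culture differ together, so they cannot be told apart in any difference between H146 and F1339. The genotype of F1339 is not given in the labels, and the labels call the libraries of a line duplicates without saying whether they are separate cultures, so the spread given here may be technical.

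SCLC is a tumour of neuroendocrine cells. Such cells carry dense-core granules packed with granins and peptide hormones, use the exocytosis machinery of neurons, and depend on lineage transcription factors such as INSM1. SCLC typically loses RB1 and often amplifies a member of the MYC family, and its cells range from a neuroendocrine state, with high granins and low Notch and YAP1 signalling, to non-neuroendocrine states.

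Levels were compared as ranks. A gene's percentile is its rank within a library among the 11883 genes whose symbols match one to one between the human and the mouse table, from 0 for the lowest normalized count to 100 for the highest. A gene is said to rank higher in a line where both libraries of that line lie above both of the other and the mean percentiles differ by at least 25 points. Differences are given as H146 minus F1339, so a negative number is a gene higher in F1339. This is a description and not a test, since an exact two-sided permutation test of 2 against 2 libraries cannot go below 0.3333. By this rule 1333 genes, 11.2% of those matched, ranked higher in H146 and 1304, 11.0%, in F1339, 22.2% in all. Ranked over every gene of its own table, which is longer for H146, the split became 1676 against 634, and the median difference over all genes moved from -0.41 to 4.03 points. Genes named below whose call that ranking took away are given with their value there, save the HOX genes and MYCL neighbours of the closing section. As an alternative, edgeR on the recovered reads called 2959 genes (24.9%) higher in H146 and 2902 (24.4%) in F1339, at an adjusted p under 0.05 and 2-fold. Among them were 1327 of the 1333 and 1304 of the 1304 genes called by rank. That test does not remove differences in transcript length between the species.

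The libraries held 61364041 to 67892360 reads assigned to genes. The H146 libraries lay close to each other, with a median difference of 1.20 points per gene and 1 gene, CHCHD10, at least 25 points apart. The F1339 libraries differed more, with a median of 2.67 points and 79 such genes, which is 0.665% of those matched. Between the lines the median was 11.5 points. Several of the F1339 gaps were large. GRIA1, a glutamate receptor subunit, had 437 normalized counts in F1339 vehicle 1 and 9086 in F1339 vehicle 2, STMN2, a neuronal microtubule regulator, had 485 and 6159, and the growth factor IGF2 had 4356 and 71.2. The libraries labelled F1339 vehicle 1 and 2 thus differed in expression of particular genes, and results that rest on 1 of them are given without it.

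**Figure D1:**
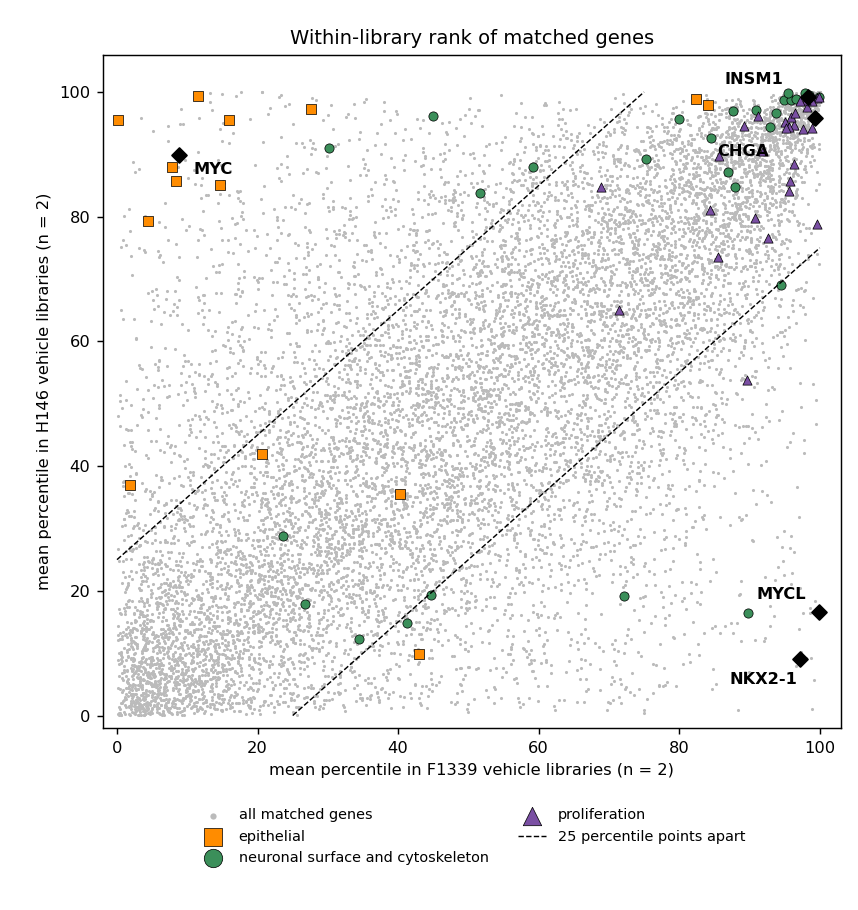
Mean percentile of each of the 11883 matched genes in the F1339 vehicle libraries (horizontal) and the H146 vehicle libraries (vertical), with 3 gene lists coloured and 5 genes named as black diamonds. INSM1 and CHGA sit near the top of both lines, MYC lies far to the H146 side, and MYCL and NKX2-1 far to the F1339 side of the dashed lines, which mark a difference of 25 points.

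The label SCLC was first held against the neuroendocrine markers. INSM1, a zinc finger factor of neuroendocrine differentiation, had 49146 and 53308 normalized counts in the H146 libraries and 56733 and 31831 in the F1339 libraries. The lines overlapped, and the mean percentiles were 99.2 and 98.4. CHGA, chromogranin A, the main soluble protein of dense-core granules, had 18314 and 20681 in H146 and 79124 and 61868 in F1339. It was higher in both F1339 libraries by count, but it lay so near the top of both lines (95.8 and 99.4) that its rank differed by only -3.56 points. By edgeR on the recovered reads INSM1 differed by a log2 ratio of 0.24 (adjusted p = 0.48) and CHGA by -1.83 (adjusted p = 0.00048). SYP, synaptophysin, a membrane protein of small vesicles, lay at or above percentile 75 in every library, as did NCAM1, a neural adhesion molecule, and UCHL1, a neuronal ubiquitin hydrolase.

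Some of the neuroendocrine transcription factors ranked differently in the lines. Of 30 in the list, 26 were in both tables, and 9 of these were top-ranked, which here means at or above percentile 75 in all 4 libraries, as 14.9% of all matched genes were. Of the 26, 3 (11.5%) ranked higher in H146 and 7 (26.9%) in F1339, against 11.2% and 11.0% of all matched genes. The median difference was -5.38 points against -0.41 over all genes. Ranked over the own table, 2 of the 26 were called higher in H146 and 3 in F1339, against 1676 and 634 of all 11883 matched genes. Besides INSM1, the shared high factors included FOXA2, a pioneer factor of foregut and lung, and HES6, a neurogenic regulator that opposes HES1.

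NKX2-1, the lineage factor of lung and thyroid epithelium, separated the lines most widely among these factors. It had 52.2 and 78 normalized counts in H146 and 26572 and 28105 in F1339, a difference of -88.1 points and an edgeR log2 ratio of -8.69 (adjusted p = 4.5e-05). SOX1 and SOX2, related factors of neural progenitors, went in opposite directions. SOX1 had 637 and 626 in H146 and 27201 and 19232 in F1339 (-70.1 points, and -45.6 over the own table), and SOX2, which also marks airway progenitors, had 34648 and 36351 in H146 and 1431 and 769.8 in F1339 (63.2 points). Counts per kilobase of exon, taken from the human annotation for both lines, put SOX2 at 14126 and SOX1 at 222 in H146, and SOX2 at 438 and SOX1 at 8169 in F1339. The higher of these 2 genes was thus SOX2 in H146 and SOX1 in F1339.

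ONECUT2, a homeodomain factor, ranked higher in H146, with 11905 and 10683 normalized counts there and 1857 and 1390.2 in F1339. POU4F1, a factor of sensory neurons, had 13 and 19.5 in H146 and 2786 and 1578 in F1339 (-48.2 points). NFIB, a chromatin-opening factor that can be amplified in SCLC of mice, had 4847 and 4734 in H146 and 90263 and 85649 in F1339, where it was among the highest genes of all. Its difference was -25.6 points, and -46.8 points per kilobase of human exon. LHX2, a LIM homeodomain factor, MYT1, a neural zinc finger factor, and ETV5, an ETS factor, also ranked higher in F1339, by -42.1, -26.1 and -31.2 points. SOX4 ranked higher in H146 by 25.8 points. Ranking over the whole own table took the call from LHX2 (-24.5), MYT1 (-14.5), ETV5 (-15.9), NFIB (-15.5) and SOX4 (19.9). Without F1339 vehicle 1, ETV5 stood at -15.4 and SOX4 at 22.0 points, and without H146 vehicle 2, MYT1 stood at -25.0, just under the limit.

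NEUROD1, the proneural factor that names another SCLC subtype, was low in both lines. It had 31.1 and 28.7 normalized counts in H146 and 215 and 259.5 in F1339, which is a mean percentile of 5.37 and 17.4. Its libraries did not overlap, but the difference of -12.1 points did not reach the limit. NEUROD4 was listed in the F1339 table only, with 557 and 640.0, and NEUROD2 in the H146 table only, with 47.1 and 47.2. Of the tuft cell list, which marks a further subtype, 4 of 12 genes were in both tables. POU2F3, its master factor, was listed in the F1339 table only, with 6.48 and 16.6. KIT, a receptor tyrosine kinase shared by tuft and neuroendocrine cells, ranked higher in F1339, with 6217 and 5619 against 1682 and 1676 in H146 (-33.7 points, and -18.4 when ranked over the own table).

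**Figure D2:**
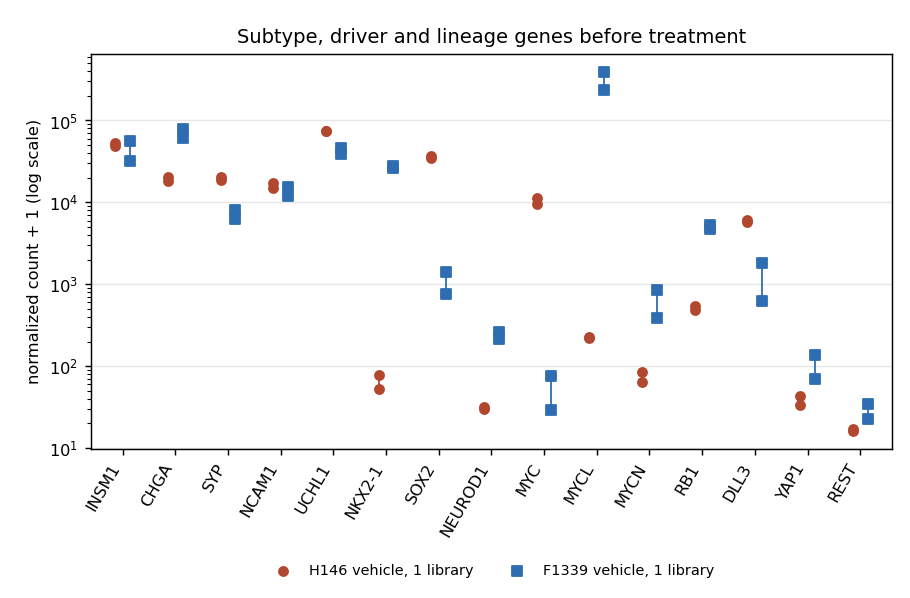
Normalized count plus 1 on a log scale for 15 subtype, driver and lineage genes, 1 point per vehicle library, with a line joining the libraries of a line. INSM1 and NCAM1 overlap between the lines, while NKX2-1, SOX2, MYC and MYCL lie more than 10-fold apart.

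The MYC family showed a different member in each line. MYC had 11462 and 9566 normalized counts in H146 and 28.1 and 74.1 in F1339, a difference of 81.0 points and an edgeR log2 ratio of 7.69 (adjusted p = 0.00015). MYCL, the member first found in SCLC, had 228 and 219 in H146 and 393007 and 237225 in F1339, a difference of -83.3 points and a log2 ratio of -10.44 (adjusted p = 5.9e-05). Its mean percentile was 16.7 in H146 and, rounded, 100 in F1339. MYCN was low in both, with 63.2 and 84.2 in H146 and 861 and 382 in F1339 (-16.2 points, not called). Per kilobase of human exon, the H146 means were 3504 for MYC, 44.1 for MYCL and 28.3 for MYCN. The F1339 means were 17.0, 62239 and 239. MYC thus led the family in H146 and MYCL in F1339, on counts and per kilobase, and in each library.

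The partners and antagonists of MYC in the MAX network differed less. MAX, the dimer partner of all MYC proteins, had 3119 and 3217 in H146 and 7107 and 6633 in F1339 (-19.9 points, not called). MXD3 and MXI1, which compete with MYC for MAX, ranked higher in F1339, by -33.1 and -33.7 points, and MLXIP, a glucose-sensing relative, ranked higher in H146 by 32.2 points. Ranking over the own table took the calls of MXD3 (-18.1) and MXI1 (-18.8). In all, 2 of 12 genes of the network (16.7%) ranked higher in H146 and 3 (25%) in F1339, against 11.2% and 11.0% of all matched genes. None of the 12 was top-ranked.

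Of the RB and p53 axis, 17 of 21 genes were in both tables. Of these, 2 (11.8%) ranked higher in H146 and 3 (17.6%) in F1339, against 11.2% and 11.0% of all matched genes. RB1, the retinoblastoma tumour suppressor, had 478 and 550.1 normalized counts in H146 and 5366 and 4756 in F1339 (-51.1 points, and -31.9 over the own table). Gene counts do not show whether a transcript is whole or encodes a working protein. CDKN1A, the p21 cell cycle inhibitor, had 6385 and 5662 in H146 and 549 and 1531 in F1339 (46.2 points), and CCND3, cyclin D3, ranked higher in H146 by 44.1 points. E2F2, a target and effector of the RB pathway, ranked higher in F1339 (-28.7 points, and -17.2 over the own table). The call of MDM4, a p53 inhibitor, was marginal, at -25.2 points. It was lost over the own table (-11.6), without H146 vehicle 1 (-20.9) and without F1339 vehicle 2 (-22.3). CDKN2A, CDKN2C, CDKN1B, CDK4, E2F1 and MDM2 were top-ranked. CDKN2A encodes p16 among other products, and gene counts do not separate its products. RB function was not tested. TP73, a relative of p53, and CDK6, a cyclin D kinase, were listed in the H146 table only, with 4147 and 3605 counts and with 4051 and 3452.

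The secretory genes were next. All 17 granin and prohormone processing genes were in both tables, and 5 of them were top-ranked: CHGA, CHGB, SCG3, CPE and PAM. CHGB, chromogranin B, had 9835 and 9507 normalized counts in H146 and 8697 and 7649.7 in F1339, a difference of 3.07 points. CPE, which trims basic residues from prohormones, had 9363 and 9607 in H146 and 27228 and 17679 in F1339 (-7.65 points). Granule proteins and trimming enzymes of this kind were thus high in both lines.

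Other granule genes differed, 5 (29.4%) ranking higher in H146 and 2 (11.8%) in F1339, against 11.2% and 11.0% of all matched genes. The median over the list was 5.31 points. The prohormone convertases, which cut peptide precursors, went in opposite directions. PCSK1 had 1804 and 1589.9 in H146 and 31340.3 and 16964 in F1339 (-50.8 points, and -31.2 over the own table), while PCSK2 had 17988 and 15049 in H146 and 3146 and 2827 in F1339 (34.1 points). Per kilobase of human exon these differences were -48.1 and 36.6 points. SCG5, the 7B2 chaperone that PCSK2 needs to mature, went with PCSK1 and not with PCSK2. It had 68.2 and 53.4 in H146 and 4281 and 3208 in F1339 (-57.8 points).

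SCGN, secretagogin, a calcium-binding protein of endocrine cells, had 4730.2 and 4724 in H146 and 14 and 0 in F1339 (71.6 points). SCG2, secretogranin II, had 25673 and 24059.7 in H146 and 4509 and 853 in F1339, 45.7 points in all and 25.4 without F1339 vehicle 2. VGF, a neurotrophin-induced granule protein, had 5954 and 6372 in H146 and 1870.4 and 1194 in F1339 (38.3 points). QPCT, which makes pyroglutamate ends on peptides, ranked higher in H146 by 27.5 points, and by 23.6, under the limit, without F1339 vehicle 1.

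**Figure D3:**
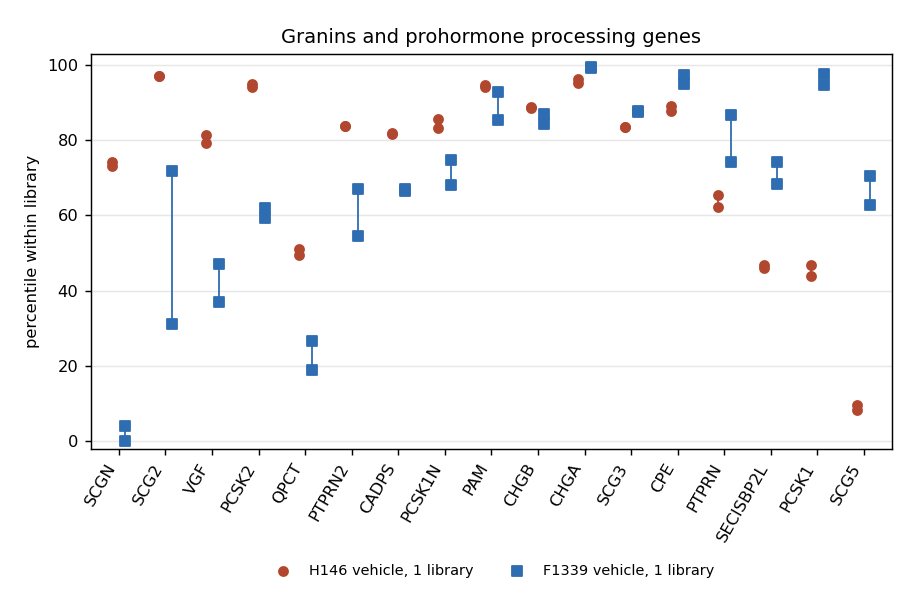
Percentile within each vehicle library of the 17 granin and prohormone processing genes, 1 point per library, ordered by the difference between the lines. SCGN, SCG2, VGF and PCSK2 lie higher in H146, PCSK1 and SCG5 higher in F1339, and CHGA and CHGB lie high in both; the F1339 libraries are 40.6 points apart for SCG2.

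Peptide hormones were mostly low, and each line had its own high one. Of 31 genes for peptides and amine synthesis 15 were in both tables, 9 in the H146 table only, 1 in the F1339 table only and 6 in neither. CALCA, which encodes calcitonin and CGRP, had 105 and 122 normalized counts in H146 and 13846 and 11692 in F1339 (-79.9 points). NTS, the neurotensin precursor, was listed in the H146 table only, with 70912 and 66745, which put it at a percentile of 99.7 of that table in both libraries. PENK, proenkephalin, had 5676 and 5461 in H146 and 2385 and 592 in F1339 (38.1 points, and 24.0 without F1339 vehicle 2). GRP, the bombesin-like peptide that SCLC cells can use as a growth factor, was at a low level in both lines, with 351 and 313 in H146 and 137 and 435 in F1339.

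Amine synthesis was shared in part. DDC, the decarboxylase that makes dopamine and serotonin, had 40868 and 37669 in H146 and 78142 and 56269 in F1339, which was top-ranked (-0.59 points). SLC18A2, which loads amines into vesicles, had 3369 and 2848 in H146 and 140.4 and 122 in F1339 (47.8 points). In the human annotation 56.1% of the exon bases of SLC18A2 are shared with other genes, and whether the counting used strand is not stated, so its counts are uncertain.

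Of 21 synaptic vesicle and exocytosis genes in both tables, 7 were top-ranked, among them SYP, SYT11 and CPLX2. SYP had 20643 and 18750.2 normalized counts in H146 and 7989 and 6198 in F1339. CPLX2, complexin 2, a clamp of vesicle fusion, had 7819 and 7076 in H146 and 101149 and 60340.3 in F1339, at mean percentiles of 84.2 and 99.4. In all, 5 of the 21 (23.8%) ranked higher in H146 and 2 (9.52%) in F1339, against 11.2% and 11.0% of all matched genes. The median difference was 11.1 points.

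STX1A, the plasma membrane SNARE of synaptic release, differed most. It had 5996 and 6126 in H146 and 5.4 and 2.93 in F1339, a difference of 79.1 points. SNAP25, its partner SNARE, had 10932 and 11356 in H146 and 9597 and 10289.7 in F1339 (1.64 points). The small GTPases of secretion split, with RAB3B higher in H146 (57.2 points) and RAB3C in F1339 (-30.5 points, and -17.2 over the own table). The calcium sensors of fusion, the synaptotagmins, split as well. SYT4 ranked higher in H146 (51.8 points), as did SYT1 (27.0, but 20.8 over the own table and 20.8 without F1339 vehicle 2), and SYT7 in F1339 (-37.1 points, -22.0 over the own table). SV2A, a vesicle glycoprotein, ranked higher in H146 by 29.5 points and by 23.1 over the own table.

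The neuronal surface and cytoskeleton genes were high in both lines. Of the 28, all in both tables, 15 were top-ranked. STMN1, a microtubule regulator of dividing cells, had 47799.5 and 49226 in H146 and 149478 and 150470.0 in F1339. UCHL1 had 73730.3 and 74999.6 in H146 and 39353 and 46391 in F1339, and NCAM1 had 17131 and 14809.8 against 15594 and 12063. Of the list, 4 genes (14.3%) ranked higher in H146 and 5 (17.9%) in F1339, against 11.2% and 11.0% of all matched genes.

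ELAVL2, a neuronal RNA-binding protein, had 216 and 216 normalized counts in H146 and 9898 and 10907 in F1339 (-73.3 points), while its relatives ELAVL3 and ELAVL4 were top-ranked. ENO2, neuron-specific enolase, a serum marker of SCLC, had 20804 and 19746 in H146 and 1823 and 1577 in F1339 (51.2 points). SEZ6L, a neuronal membrane protein, ranked higher in H146 by 60.9 points. The neurofilament subunits NEFH (-52.9 points), NEFL (-26.4) and NEFM (-25.3) ranked higher in F1339, but the calls of NEFL and NEFM rested on F1339 vehicle 2, at 2811 and 2915 counts against 489 and 769 in F1339 vehicle 1. Without F1339 vehicle 2 they stood at -8.68 and -9.81, and over the own table at -16.3 and -13.1. TUBB3, a neuronal tubulin, ranked higher in F1339 by -25.4 points and by -14.8 over the own table. STMN2 and MAPT, the tau protein, ranked higher in H146 by 32.1 and 28.8 points. Both rested on F1339 vehicle 1, without which they stood at 3.84 and 14.5 points, and MAPT stood at 23.4 over the own table. By edgeR STMN2 did not pass (adjusted p = 0.36).

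Notch signalling represses the neuroendocrine state, and DLL3 is a ligand that inhibits it in the same cell and is a drug target in SCLC. DLL3 had 5689 and 6009 normalized counts in H146 and 1829 and 633 in F1339 (42.5 points). DLK1, a related non-canonical ligand, had 11581 and 9828 in H146 and 81 and 24.4 in F1339 (81.5 points), and DLL1 and JAG1, activating ligands, ranked higher in H146 by 53.1 and 30.8 points. DLL4, another activating ligand, ranked higher in F1339 (-32.1 points). Of the fringe enzymes, which modify Notch receptors and change their choice of ligand, MFNG and LFNG ranked higher in F1339. MFNG had 7.02 and 9.24 in H146 and 4825 and 5334 in F1339 (-74.2 points), and LFNG differed by -40.4 points, while the third, RFNG, differed by -14.5 and was not called.

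Over the list 4 of 20 matched genes (20%) ranked higher in H146 and 4 (20%) in F1339, against 11.2% and 11.0% of all matched genes. The fourth in F1339 was DTX1 (-30.0 points). Over the own table DLL4 (-16.8), LFNG (-23.0) and DTX1 (-17.0) fell under the limit. Most receptors and targets lay below the middle of the ranking. NOTCH1 had 194 and 193 in H146 and 86.4 and 1224 in F1339, and HES1, the target that represses neuroendocrine genes, had 55.2 and 97.5 in H146 and 60.5 and 339.5 in F1339. The receptor NOTCH2 had 90.3 and 58.5 in H146 and 842 and 1080.0 in F1339, which was not called by rank (-23.0 points) but was by edgeR (log2 ratio -3.67, adjusted p = 0.00043). The targets HEY1 and HEY2 went in opposite directions, HEY1 with 845 and 734 in H146 and 1769 and 2459.5 in F1339 (log2 ratio -1.40, adjusted p = 0.0028) and HEY2 with 1362 and 1279 against 290.5 and 301 (2.18, adjusted p = 0.00038). Without F1339 vehicle 1, 6 in place of 4 genes of the list ranked higher in F1339. RBPJ, the DNA-binding partner of Notch, was top-ranked.

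Genes of the non-neuroendocrine state were mostly low in both lines. YAP1, a growth-promoting coactivator that is silent in neuroendocrine SCLC, had 42.1 and 32.8 normalized counts in H146 and 69.1 and 138 in F1339. REST, the repressor of neuronal genes, had 16 and 15.4 in H146 and 21.6 and 33.2 in F1339. Over 26 matched genes of this list the median percentile was 17.4 in H146 and 21.5 in F1339, and only TEAD1, a DNA-binding partner of YAP1, was top-ranked. Of the list 5 genes (19.2%) ranked higher in H146 and 3 (11.5%) in F1339, against 11.2% and 11.0% of all matched genes. S100A6, a calcium-binding protein, had 5289 and 5816 in H146 and 33.5 and 88.8 in F1339 (68.0 points). ANXA2, a membrane-binding protein, ranked higher in H146 by 47.6 points, the receptor kinase MET by 35.0 and the receptor TGFBR2 by 31.5. LGALS1, galectin-1, ranked higher in F1339 (-47.6 points), as did CAVIN1, a caveola protein (-40.1 points, and -26.1 without F1339 vehicle 2).

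The epithelial list held the largest share of genes called in 1 direction among the lists compared here. Of 14 in both tables, 9 ranked higher in H146 and 1 in F1339, against 11.2% and 11.0% of all matched genes, with a median difference of 70.1 points. Keratins 8 and 18, which pair into filaments of simple epithelium, were near the top in H146 and near the bottom in F1339. KRT8 had 62126 and 58535 normalized counts in H146 and 51.8 and 121 in F1339 (87.8 points). KRT18 had 18482 and 18138 in H146 and 0 in both F1339 libraries. Against a floor of 3 reads over the F1339 libraries together, KRT18 was at least 12211-fold higher in H146. Keratin genes have processed copies in the genome among which reads can be split, so their counts are uncertain in either table.

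The adhesion genes went the same way. EPCAM, an epithelial adhesion molecule, had 25401 and 26687 in H146 and 881 and 500.5 in F1339 (69.8 points). CDH1, E-cadherin, had 8478 and 7173 in H146 and 152 and 143 in F1339 (70.4 points). CLDN3, a tight junction claudin, had 6042 and 5715 in H146 and 38.9 and 1.95 in F1339 (74.96 points). The surface protease ST14 and its inhibitor SPINT1 ranked higher in H146 by 79.7 and 80.2 points. ESRP1 and ESRP2, which direct epithelial splicing, ranked higher in H146 by 77.3 and 35.2 points.

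Other epithelial genes did not reach 25 points. DSP, desmoplakin, had 45567 and 38813 in H146 and 5845 and 8554 in F1339, and SPINT2, another protease inhibitor, had 30847 and 27828 against 9199.5 and 6278. Both were top-ranked. Ranks this near the top leave little room, and by edgeR both were higher in H146, DSP by a log2 ratio of 2.57 (adjusted p = 0.00038) and SPINT2 by 1.95 (adjusted p = 0.00075). Of the epithelial factors, GRHL2 differed by 21.3 points, with an edgeR log2 ratio of 2.05 (adjusted p = 0.00045), and ELF3 by -4.87 points (adjusted p = 0.19). In all, edgeR called 12 of the 14 genes higher in H146 and 1 in F1339, against 24.9% and 24.4% of all matched genes. KRT7, a simple keratin, was the exception in F1339, with 70.2 and 77 in H146 and 1352 and 1762 in F1339 (-33.0 points). A further 6 genes of the list were in the H146 table only, among them KRT19 with 18858 and 17253 and CLDN7 with 9421 and 8684.

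ZEB1, a repressor that binds E-boxes of epithelial genes, ranked higher in F1339, with 58.2 and 46.2 in H146 and 3275 and 2945 in F1339 (-53.6 points). VIM, vimentin, an intermediate filament of mesenchymal cells, had 259 and 209 in H146 and 798 and 2381 in F1339, a difference just under the limit of 25 points. CDH2, N-cadherin, differed by -22.4 points and was not called. SNAI1, another repressor of epithelial genes, had 519 and 430.1 in H146 and 8.64 and 11.7 in F1339 (20.3 points, not called).

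**Figure D4:**
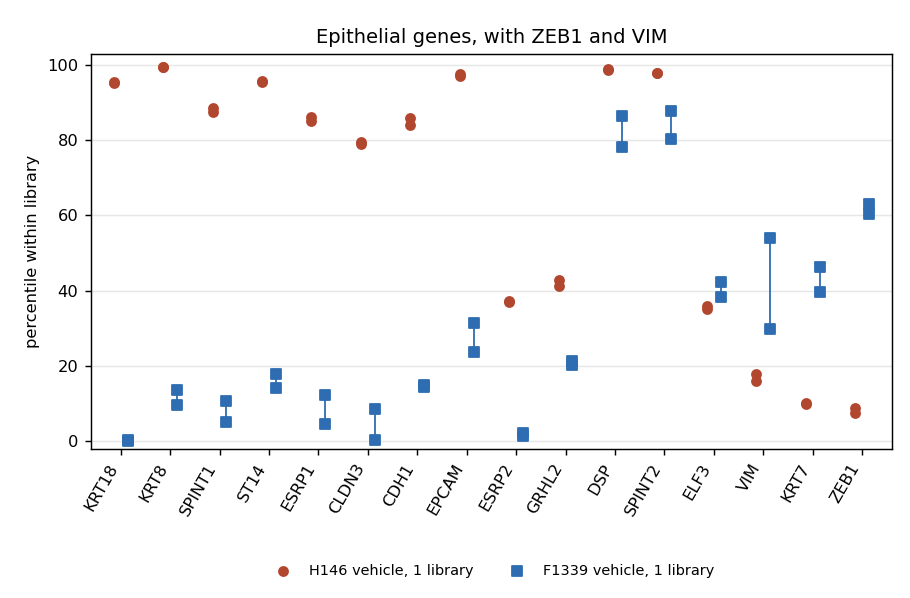
Percentile within each vehicle library of the 14 matched epithelial genes, with ZEB1 and VIM added, 1 point per library, ordered by the difference between the lines. KRT18, KRT8, SPINT1, ST14, ESRP1, CLDN3, CDH1 and EPCAM lie above 75 in H146 and below 50 in F1339, DSP and SPINT2 lie high in both, and ZEB1 and KRT7 lie higher in F1339.

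Human promoters of the epithelial genes that ranked higher in H146 were searched for the E-box letters CAGGTG or CACCTG. The letters are each other's reverse complement, so both strands were covered. The promoters run from 250 bases before to 50 after the start of the gene and come from RefSeq (GRCh38.p14). Of the 9 epithelial genes that ranked higher in H146, CLDN3, KRT8 and SPINT1 matched an entry, and mouse promoters were not used here. The motif, in capitals, stood in 1 of the 3, in CLDN3. It stood in 20.6% of all 27305 promoters of the table and in 18.0% of the 9458 that belong to matched genes. The promoters lie at chr7:73770221-73770520 on the minus strand for CLDN3, chr12:52926420-52926719 on the minus strand for KRT8 and chr15:40843798-40844097 on the plus strand for SPINT1. A match describes letters, not binding. With only 3 promoters, of genes picked by their rank in these data, the share says nothing about the list. Whether ZEB1 or SNAI1 acts on these genes was not tested.
CLDN3: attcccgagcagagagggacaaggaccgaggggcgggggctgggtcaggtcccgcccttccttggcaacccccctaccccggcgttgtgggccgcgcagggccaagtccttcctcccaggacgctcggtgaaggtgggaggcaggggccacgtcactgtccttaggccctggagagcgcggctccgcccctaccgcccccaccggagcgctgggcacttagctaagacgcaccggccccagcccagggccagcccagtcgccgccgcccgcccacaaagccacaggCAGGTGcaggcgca
KRT8: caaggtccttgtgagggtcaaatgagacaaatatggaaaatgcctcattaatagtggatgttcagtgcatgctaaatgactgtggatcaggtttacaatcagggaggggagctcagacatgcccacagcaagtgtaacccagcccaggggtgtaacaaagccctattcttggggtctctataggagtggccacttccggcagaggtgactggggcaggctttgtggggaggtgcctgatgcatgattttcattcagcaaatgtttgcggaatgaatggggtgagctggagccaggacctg
SPINT1: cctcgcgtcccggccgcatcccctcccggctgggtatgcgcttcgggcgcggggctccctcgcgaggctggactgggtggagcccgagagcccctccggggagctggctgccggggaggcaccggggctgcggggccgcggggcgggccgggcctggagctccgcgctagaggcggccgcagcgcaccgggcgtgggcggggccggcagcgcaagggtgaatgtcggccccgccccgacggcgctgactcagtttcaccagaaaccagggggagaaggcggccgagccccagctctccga

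Among targets of drugs used or tested in SCLC, 25 of 29 were in both tables, and 10 were top-ranked. Of the 25, 7 (28%) ranked higher in H146 and 2 (8%) in F1339, against 11.2% and 11.0% of all matched genes. PARP1, the DNA repair enzyme, had 53725 and 49907 in H146 and 23748 and 26091 in F1339. DNMT1, the maintenance DNA methyltransferase that decitabine depletes, had 15398 and 15624 in H146 and 49752 and 48292 in F1339, at mean percentiles of 94.2 and 98.8 (-4.65 points). The target of the drug was thus among the higher genes of both lines before treatment. The mitotic kinases AURKA, AURKB and PLK1 were also top-ranked.

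SSTR2, the somatostatin receptor used for radioligands, had 127 and 137 in H146 and 6892 and 7849 in F1339 (-70.3 points). BCL2, the anti-apoptotic protein, had 5585 and 5157 in H146 and 1136 and 1202 in F1339 (40.5 points), while its relatives BCL2L1 (-3.05 points) and MCL1 (9.84 points) were top-ranked. FGFR1, a growth factor receptor, ranked higher in H146 by 33.0 points and ERBB2 by 29.7, with ERBB2 at 783 and 895 in H146 and 2.16 and 3.9 in F1339. CD276, an immune checkpoint protein, ranked higher in H146 by 28.3 points, the receptor kinase RET by 26.3 and the ganglioside enzyme B4GALNT1 by 25.6. These 3 calls were marginal: over the own table they stood at 23.9, 22.4 and 23.0 points. Without F1339 vehicle 1 RET stood at 10.6, without F1339 vehicle 2 B4GALNT1 stood at 22.6, and by edgeR RET did not pass (adjusted p = 0.083).

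Voltage-gated calcium channels feed exocytosis, and some of their pore subunits ranked differently in the lines. CACNA1A, the P/Q-type pore, had 18653 and 26424 in H146 and 1352 and 1392 in F1339 (56.7 points), and CACNA1E, the R-type pore, ranked higher in H146 by 27.8 points (15.5 per kilobase). CACNA1C, an L-type pore, had 29.1 and 29.8 in H146 and 7487 and 4589 in F1339 (-72.9 points, and -44.5 per kilobase). CACNA1D, the other L-type pore listed, had 323 and 350.0 against 1229 and 1065 (-16.6 points, not called by rank; edgeR adjusted p = 0.0011). CACNA1B, the N-type pore, had 2612 and 2679 against 3158 and 2924 (-3.85 points, edgeR adjusted p = 0.25). The T-type pores CACNA1G (-51.7 points) and CACNA1H (-39.2 points, and -22.4 over the own table) and the auxiliary subunit CACNA2D2 (-44.4 points, and -26.4 over the own table) ranked higher in F1339. Of 18 channel and nicotinic receptor genes in both tables, 2 ranked higher in H146 and 4 in F1339, which is 11.1% and 22.2% beside 11.2% and 11.0% of all matched genes. The nicotinic subunit CHRNB2 was not called, with 5531 and 4304 in H146 and 3294 and 3228 in F1339. CHRNA3 and CHRNA5 were not called by rank either. By edgeR both were higher in H146, by log2 ratios of 3.92 (adjusted p = 0.00052) and 2.66 (adjusted p = 0.0008). CHRNA4 had few counts in both lines and did not pass (adjusted p = 0.14).

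Proliferation genes were high in both lines. Of 29, all in both tables, 24 were top-ranked and 1, the centromere histone CENPA, ranked higher in F1339 (-35.8 points, -20.7 over the own table and -17.0 per kilobase). MKI67, the proliferation marker Ki-67, had 26056 and 28325 in H146 and 33439 and 42623 in F1339, and TOP2A, the mitotic topoisomerase, had 49018 and 46644 against 76716 and 86297. The median difference over the list was -1.24 points. Genes at the top of both lines can differ in counts with little change in rank. By edgeR 8 of the 29 were higher in F1339 and 0 in H146, against 24.4% and 24.9% of all matched genes. The summed normalized counts of the list were 512433 and 495273 in H146 and 799995 and 878777 in F1339. High-count genes such as STMN1 weigh most in this sum, and BIRC5, BUB1 and MCM4 had higher counts in H146. CDC20, an activator of the anaphase-promoting complex, had 5944 and 5537 in H146 and 79410.2 and 88827 in F1339 (-20.8 points, log2 ratio -3.85, adjusted p = 5.3e-05). The others that edgeR called higher in F1339 were CCNA2, MCM5, STMN1, EZH2, UHRF1, DNMT1 and CENPA.

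**Figure D5:**
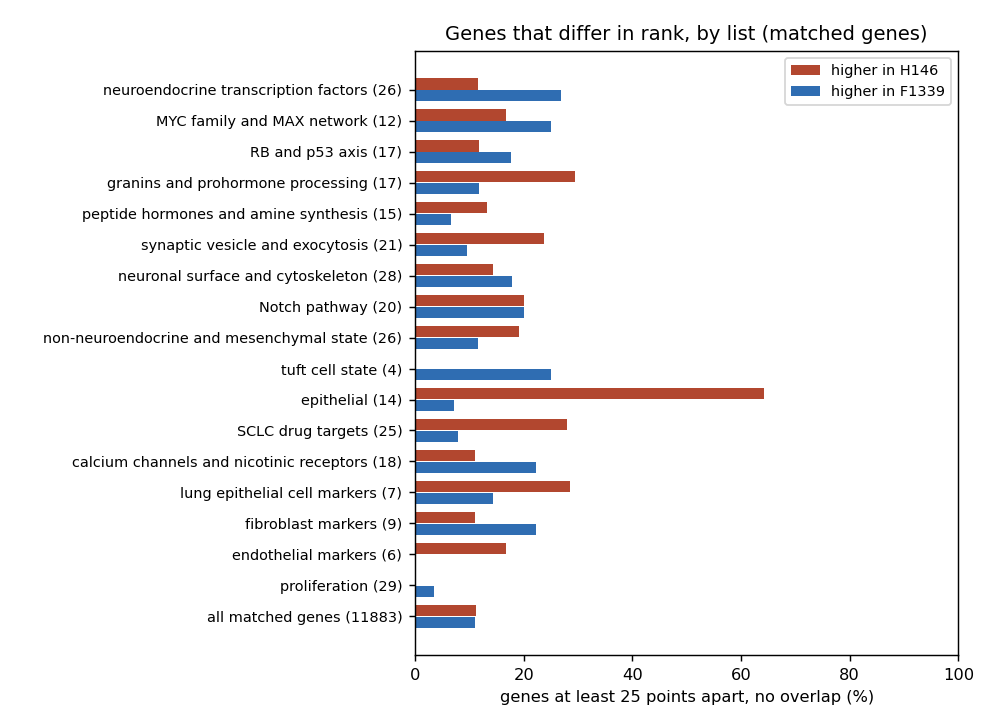
Share of the matched genes of each list that rank at least 25 points higher in H146 or in F1339 with no overlap of libraries, with the number of matched genes in parentheses and all 11883 matched genes in the bottom row. The epithelial list reaches 64.3% higher in H146, and proliferation has 0% in H146 and 3.45% in F1339.

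Markers of other cell types were checked in each line. Of 16 immune markers none was in both tables, 9 were in the H146 table only and 2 in the F1339 table only, with PTPRC, the leukocyte antigen CD45, highest at 420 and 419 in H146. Fibroblast markers in both tables, 9 of 15, summed to 12243 to 13332 normalized counts in the H146 libraries and 7678 to 9488 in the F1339 libraries. In H146 most of that sum was THY1, which neurons also make, with 9052 and 8448 against 162 and 34.1 in F1339 (75.7 points). In F1339 it was FN1, fibronectin, with 5269 and 5275 against 1589 and 1286 (-35.2 points, -19.3 over the own table). COL1A1, a collagen, had 63.2 and 51.3 in H146 and 34.6 and 75.1 in F1339. Higher than COL1A1 in H146, and listed in the H146 table only, were COL3A1 (380 and 342), COL1A2 (289 and 233) and ACTA2 (279 and 286). COL5A1 ranked higher in F1339 by -37.8 points, and by -23.0 without F1339 vehicle 2. Endothelial markers, 6 of 11, summed to 3134 to 3216 in H146, where most was ERG (2680.0 and 2671), and to 491 to 657 in F1339. The endothelial markers PECAM1 and CDH5 were at or below 77 in every library. The part of such cells in the differences above was not tested, and in bulk RNA fewer cells of a type and less RNA per cell cannot be told apart.

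Lung epithelial markers were few in common, 7 of 16. ABCA3, a lipid transporter of type 2 alveolar cells, had 31752 and 27427 in H146 and 3039.9 and 3042 in F1339 (36.8 points), and FOXJ1, the ciliated cell factor, ranked higher in H146 by 38.1 points. HOPX, a type 1 alveolar marker, ranked higher in F1339 by -31.0 points and by -24.6 without F1339 vehicle 1. SFTPC, a surfactant protein of type 2 cells, was listed in the F1339 table only, with 2871 and 3526. Of others listed there only, SFTPA1 had 0 in both F1339 libraries, SFTPB 2.16 and 6.83, and SCGB3A2 1.08 and 442.

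Beyond the lists, the genes with the largest rank differences in H146 included COL2A1, the cartilage collagen, with 16826 and 23568 normalized counts in H146 and 3.24 and 24.4 in F1339 (92.4 points). ATP2A3, a calcium pump of the endoplasmic reticulum, had 94402 and 82384 against 102 and 77.1 (87.9 points). DLX5, ZIC2 and LMO3, developmental regulators of the nervous system, differed by 88.3, 87.3 and 88.7 points. MT-ATP8, a subunit of mitochondrial ATP synthase, differed by 86.6 points and by 39.2 per kilobase.

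In F1339 the largest differences were BCAT1, a branched-chain amino acid transaminase, with 9.03 and 9.24 in H146 and 101459 and 36302 in F1339 (-97.9 points), and NEDD4, a ubiquitin ligase, with 35.1 and 28.7 against 63804 and 59304 (-93.5 points). SESN3, a stress-induced sestrin, HAP1, a huntingtin-binding protein, GPR179, an orphan receptor, and HOXB8 differed by -88.8, -87.2, -87.4 and -88.8 points. EEF1G, a translation elongation factor, differed by -89.6 points, but 99.9% of its human exon bases are shared with other genes, and reads in shared exons can be lost or split in counting.

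The highest genes that ranked higher in H146 were largely mitochondrial: MT-ATP6, MT-CO2, MT-CO3, MT-ATP8 and MT-ND4L, beside ATP2A3. Mitochondrially encoded genes took 6.09% and 6.29% of reads in the H146 libraries and 1.82% and 1.22% in the F1339 libraries. These genes have near-identical copies in the nuclear genome, so the assignment of their reads is uncertain. The highest in F1339 were MYCL, NFIB, AKR1A1, an aldehyde reductase, EIF4A1, a translation helicase, PPIE, a prolyl isomerase, and HOXB9. AKR1A1 differed by -27.5 points and by -16.7 over the own table. In the human annotation MYCL, PPIE and AKR1A1 lie on chromosome 1.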

How the data were processed

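RNA was sequenced from 4 vehicle libraries, 2 each of H146 and F1339. The deposited signal values are gene counts scaled by the authors with a size factor for each library, which makes them normalized counts on a linear scale; each line was scaled separately. Whole reads were recovered from them, with 100% of values whole within 0.001 read. The deposited log2 fold changes and p-values of the authors concern decitabine and enter no result. Per the submitters' processing notes, the tools were DESeq2, Subread 1.5.2 with its featureCounts, STAR 2.5.2b and Trimmomatic 0.36. GRCh38 is noted for all samples; no source used here gives the mouse build, the annotation or whether counting used strand. The tables list 20863 human and 16833 mouse genes, and the lowest total of a listed gene is 41 reads in each, so genes with fewer were not analysed here. Symbols were matched one to one ignoring case (11883 genes, 57.0% of the human and 70.6% of the mouse list), which is not proof of orthology; 97 and 51 symbols were blank or turned into dates.

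Genes were ranked within libraries, tied genes at their average rank, with Python 3.11.15 and pandas 2.3.3. Alternatives were 15 and 40 points, ranking over the own table, filters (a mean of at least 10 in both lines, or 50 in 1), leaving out mitochondrial and ribosomal protein genes or each library, counts per kilobase of human exon (GENCODE 29, also for the mouse line), 4-fold by CPM, edgeR 4.0.16 quasi-likelihood and DESeq2 1.42.0 on the recovered reads, with Benjamini-Hochberg adjusted p, and edgeR with a replicate block. The procedure was tested on simulated data. Leaving out genes with at least 50% of their exon bases shared was added after seeing the data. The members and lists were chosen with earlier results of these data known.

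Named are a fixed set of 21 genes, up to 4 called members of a list in each direction and its 2 highest, the 8 largest differences and 6 highest called genes of each line, and up to 3 members in 1 table only. Genes named outside this rule were chosen after their values were seen, among them EPCAM, CDH1, CLDN3, ESRP1, ESRP2, GRHL2, ELF3, VIM, SNAI1, FOXA2, HES6, ETV5, MYT1, SNAP25, CDC20, CACNA1B, CACNA1D, NOTCH2, HEY1, HEY2, QPCT, SYT1, NEFM, CD276, RET, B4GALNT1 and the gene neighbours and HOX genes of the closing section. Some genes of these lists are not reported by name here.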

Additional observations from a re-analysis of the deposited data

How the results depend on the processing

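None of the named genes that were called reversed its direction under the alternatives run. The counts of genes ranked higher in H146 (1333) and genes ranked higher in F1339 (1304) depended on the limit, with 2379 and 2462 at 15 points and 563 and 486 at 40 points. Ranking over the own table gave 1676 and 634; the H146 table lists more genes, and the cause was not tested. Tests on recovered reads called more genes: edgeR 2959 and 2902, DESeq2 2944 and 2832. With a replicate block edgeR called 2996 and 2853; the numbers 1 and 2 do not pair a human with a mouse library, so the block has no meaning in the design. Leaving out 1 library gave 1334 to 1369 and 1310 to 1324, and 2245 of the 2637 calls stood in all 4 such rankings. Per kilobase of human exon, 5 genes in place of 1 differed by 25 points between the H146 libraries; the cause was not tested. Of the named genes that were called, 80 kept the call over the own table, 92 per kilobase and at least 97 without any 1 library. Lost per kilobase were AKR1A1 (-17.2), B4GALNT1 (23.5), CACNA1E (15.5), CENPA (-17.0), DTX1 (-24.3), ERBB2 (21.7), FN1 (-22.5), JAG1 (24.2), MDM4 (-18.1), RET (24.9) and TUBB3 (-20.8), 2 of them outside the naming rule. Calls that stood but moved by over 1.5 times, beside those given above, were NEFH (-34.7), EIF4A1 (-30.1), PPIE (-32.6), ERBB2 (54.0), ESRP2 (56.9) and TGFBR2 (54.6) over the own table, the 5 mitochondrial genes per kilobase (39.2 to 50.8), ETV5 (-47.0), RET (41.96) and STMN2 (60.3) without F1339 vehicle 2, and NEFL (-44.2) and NEFM (-40.8) without F1339 vehicle 1. Genes near 0 counts carry a large counting error, and ranks among them are of little precision.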

Other observations

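The HOX genes were looked at after HOXB8 and HOXB9, positional regulators of the body axis, appeared among the genes with the largest rank difference and the highest genes of F1339. Of 8 HOXB genes in both tables, 7 ranked higher in F1339, where 11.0% of all matched genes did, with a median percentile of 24.0 in H146 and 92.4 in F1339. Without HOXB8 and HOXB9, which prompted the look, 5 of 6 did. These counts were not taken over the own table, where 634 in place of 1304 of all matched genes ranked higher in F1339. HOXB9 had 253 and 318 normalized counts in H146 and 75173 and 66261 in F1339, and HOXB6 had 478 and 459.8 against 22457 and 21184. HOXB3 was not called, with 2154 and 2220.1 in H146 and 4222 and 4051 in F1339. Of 8 HOXD genes, 2 ranked higher in H146 (HOXD10 and HOXD13) and 1 in F1339 (HOXD8, with 25.1 and 26.7 against 2458 and 3449.7). HOXD11 differed between the F1339 libraries, with 6.48 and 1557. HOX clusters hold antisense genes, and without stated strand their reads cannot be told apart.

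MYCL, PPIE and AKR1A1, all on human chromosome 1, were among the highest F1339 genes, so the 20 matched genes nearest to MYCL in the order of the human annotation, 10 on each side, were also read. Of these, 9 ranked higher in F1339, against 11.0% of all matched genes, and 1 in H146, with a median difference of -19.2 points. Without PPIE, which prompted the look, 8 of 19 ranked higher in F1339 and 1 in H146. These counts, too, were not taken over the own table, where fewer of all matched genes ranked higher in F1339. TRIT1, a tRNA-modifying enzyme that lies next to MYCL among these genes, had 905 and 936 normalized counts in H146 and 26660.1 and 25649 in F1339. RLF, a zinc finger factor, had 1248 and 1147.5 against 22494 and 26653, and PABPC4, a poly(A)-binding protein, and CAP1, an actin regulator, had 153674 and 174306 and 228340 and 248738 in F1339 and were not called, since they also ranked high in H146. COL9A2, a cartilage collagen, was the gene higher in H146. The F1339 libraries differed for MFSD2A, a lipid transporter, with 616 and 9047. The mouse gene order and copy number were not analysed here.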
